A study of Arabidopsis thaliana with 4 samples.

Results

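SPY, RGA, GIS, GIS2, ZFP8 and ZFP5 are 6 genes that link hormone signals to the start of leaf hair (trichome) formation in Arabidopsis thaliana. They were chosen by locus, and a gene entered when the array's annotation or the study's table of trichome genes gave it a probe set, the group of short oligonucleotides that reads 1 transcript. Of the 6 genes, 3 had such a probe set: SPY (locus AT3G11540), RGA (AT2G01570) and GIS (AT3G58070), each read by a single probe set. They are 3 of 13338 genes with a named probe set. GIS2, ZFP8 and ZFP5 were not analysed here, since no probe set carried their names. A gene is called measured where a probe set carries its name; any gene not measured in this sense may still be read by 1 of the 8730 probe sets without a gene symbol. The results are therefore those of SPY, RGA and GIS.

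The mutant plants carried mutations in both GL3 and EGL3 (gl3 egl3), whose alleles and accession are not named in their titles, and the wild type plants were of the Landsberg erecta accession. The labels give green tissue at an age of 20 days for both, and the series' design text leaves roots out. The study's own text gives a younger age and more replicates for this comparison, and the labels were followed. Each of the 4 samples, 2 per genotype, was hybridised to 1 Affymetrix ATH1 array, and values are log2 GCRMA expression values as the authors deposited them. The double mutant forms no leaf trichomes, so it lacks these cells and also carries the mutations in GL3 and EGL3. In whole tissue, fewer cells of a type and less RNA per cell cannot be told apart. A difference of accession, if there was one, cannot be told apart from the mutations either.

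Gibberellins promote trichome initiation. The hormone binds GID1 receptors, which then bring DELLA proteins such as RGA to the F-box protein SLY1 for destruction, and DELLA proteins otherwise hold gibberellin responses back. SPY encodes an O-fucosyltransferase of the nucleus and cytoplasm that modifies RGA, restrains gibberellin responses and promotes cytokinin responses, and spy mutants carry overbranched trichomes. GIS, GIS2, ZFP8 and ZFP5 encode C2H2 zinc finger transcription factors. They carry gibberellin and cytokinin signals to GL1 and GL3, the MYB and basic helix-loop-helix proteins at the head of the trichome programme.

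The arrays were alike in overall signal, with medians between 4.92 and 4.99. RCA and LHCB4.1, genes of photosynthesis in green tissue, lay between 12.48 and 13.39 on all arrays. The root hair gene EXPA7 lay at 2.15 or 2.16 throughout, while PYK10, a gene strongly expressed in roots, had 10.04 and 11.04 in gl3 egl3, against 10.75 and 10.64 in wild type. Among the markers of other cell types, 3 of 4 guard cell lineage genes were measured, with differences from -0.25 to 0.00, and no floral or vascular marker had a named probe set. The mutated gene EGL3 lay between 2.30 and 2.31 on all arrays, so this gene cannot show whether the labels are right, and GL3 had no named probe set.

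To see whether the regulators upstream of GL3 were altered where GL3 and EGL3 are mutated, the gl3 egl3 values were set against wild type. SPY had log2 values of 6.19 and 6.04 in gl3 egl3 plants, against 5.21 and 5.25 in wild type plants. Both mutant arrays lay above both wild type arrays, and the gap between the nearest arrays of the groups was 0.79, while arrays of the same group differed by 0.15 in gl3 egl3 and 0.04 in wild type. SPY thus averaged 6.11 ± 0.10 in gl3 egl3 plants and 5.23 ± 0.031 in wild type plants (SD, n = 2 each). The log2 difference was 0.88 with an SE of 0.068 and a 95% confidence interval of 0.65 to 1.12, which is a 1.85-fold higher value in gl3 egl3. The limma adjusted p over all probe sets was 0.230, so SPY did not pass the threshold of 0.05. Its unadjusted limma p was 0.00184, below the level of 0.01 that the study's methods used. The SE of SPY was larger, at 0.14, when only probe sets with a mean of 5 or more were fitted. With an intensity trend and robust variances it was 0.14 as well.

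**Figure D1:**
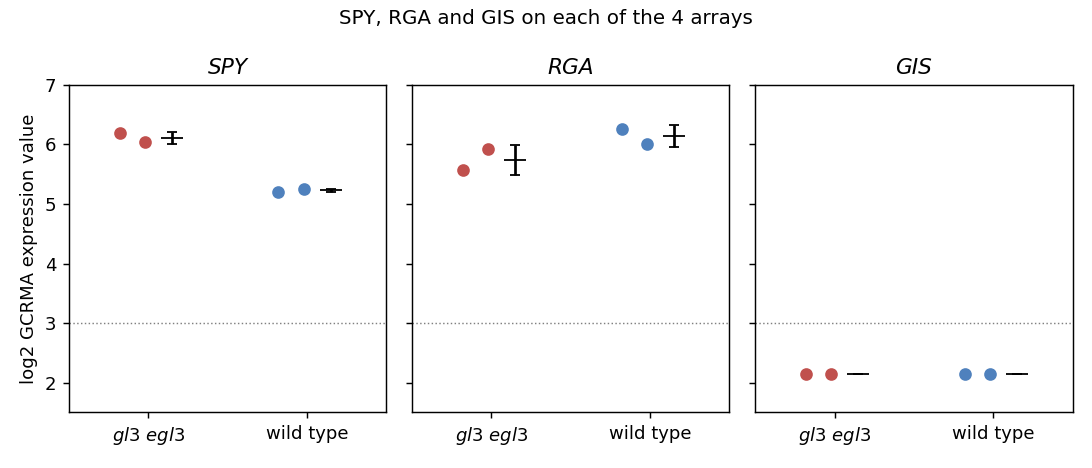
Log2 GCRMA expression values (vertical axis) of SPY, RGA and GIS on each array, with gl3 egl3 at the left (red) and wild type at the right (blue) of each panel; black marks give the mean and SD of 2 arrays, and the dotted line marks a value of 3, under which the scale is compressed. The SPY arrays of the 2 genotypes are 0.79 apart, those of RGA 0.09 apart, and those of GIS lie at 2.14 to 2.15. Levels are not compared between panels, since each gene is read by other probes.

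RGA encodes the DELLA protein best known for repressing growth in the absence of gibberellin. Its values were 5.57 and 5.92 in gl3 egl3 plants, against 6.27 and 6.01 in wild type plants. The groups did not overlap, but the gap between them was only 0.09, less than the 0.35 between the mutant arrays and the 0.26 between the wild type arrays. RGA averaged 5.74 ± 0.25 in gl3 egl3 plants and 6.14 ± 0.18 in wild type plants (SD, n = 2 each). The log2 difference was -0.40 with an SE of 0.19 and a 95% confidence interval of -1.06 to 0.27, and the limma adjusted p was 0.742. A difference in either direction thus remains within the error of these arrays. The size also depended on single arrays, at -0.22 without gl3 egl3 replicate 1 and -0.57 without the other mutant array.

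GIS, which promotes trichome formation on stems and branches of the inflorescence, gave little signal in green tissue. Its values were 2.14 and 2.14 in gl3 egl3 plants, against 2.15 and 2.14 in wild type plants. The groups overlapped, and all 4 arrays lay at the low end of the GCRMA scale (under 3), where probe sets with little signal are drawn to a common value and the spread is compressed as well. The 95% confidence interval of the log2 difference, -0.05 to 0.05, therefore describes the compressed values and sets no limit on a change of the transcript. GCRMA placed 8363 of 22746 probe sets under 3 in both groups.

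Of the 3 regulators, 1 (SPY) lay at an unadjusted limma p under 0.01, against 3.25% of all 22746 probe sets. After adjustment, 0 of the 3 and 0 of all probe sets passed by limma, as by the methods' t-test. At an unadjusted limma p under 0.05 the count was again 1 of 3, against 9.31% of all probe sets. Groups that do not overlap, as in SPY and RGA, were found in 50.8% of all probe sets. With 3 genes no share can be set against these. Ordered by p, SPY stood at place 180 of all probe sets, and at place 112 among those higher in gl3 egl3. Among the 11298 probe sets with a mean of 5 or more, 5.52% differed by at least as much as SPY in either direction, and 24.1% by at least as much as RGA.

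**Figure D2:**
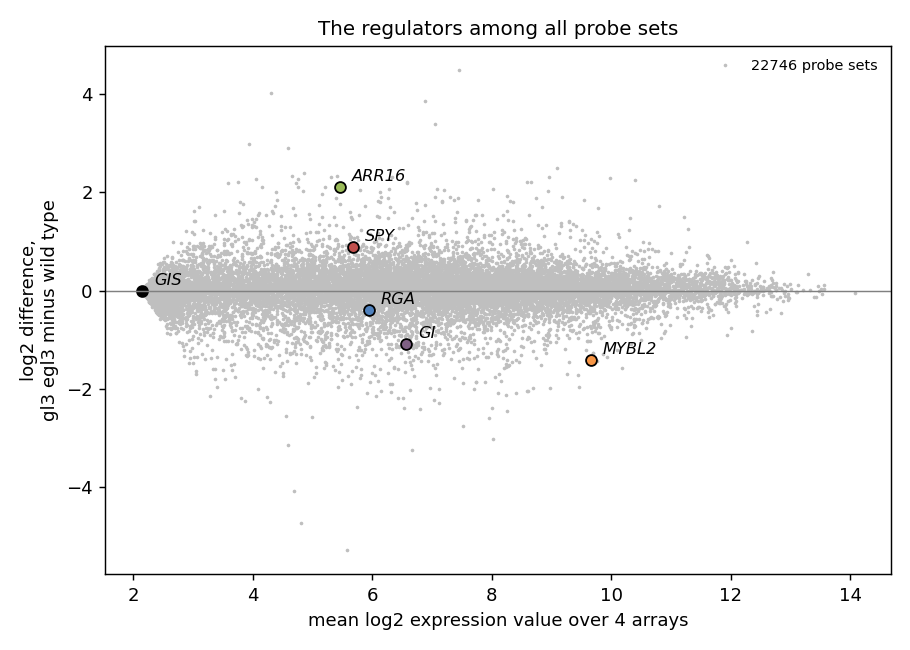
Log2 difference of gl3 egl3 minus wild type (vertical axis) against the mean log2 expression value over 4 arrays (horizontal axis) for 22746 probe sets (grey), with the regulators SPY, RGA and GIS and the pathway genes ARR16, GI and MYBL2 marked. SPY (0.88) and RGA (-0.40) lie within the spread of the grey points, with 5.52% and 24.1% of the brighter probe sets (mean of 5 or more) at least as far from 0, and GIS lies at the dim end.

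Across the settings that can alter its size, the SPY difference lay between 0.67 and 0.96. It ranged from 0.81 to 0.96 when 1 array was left out and was 0.67 when 16 was added to each linear value before taking log2, a stand-in for another background correction. Its unadjusted limma p was above 0.01 when a wild type array was left out, at 0.0323 and 0.0300, where the lone wild type array is assumed to vary like the mutant arrays. The RGA difference ranged from -0.22 to -0.57 under these settings. Its groups do not overlap, so its sign could not turn when 1 array was left out.

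**Figure D3:**
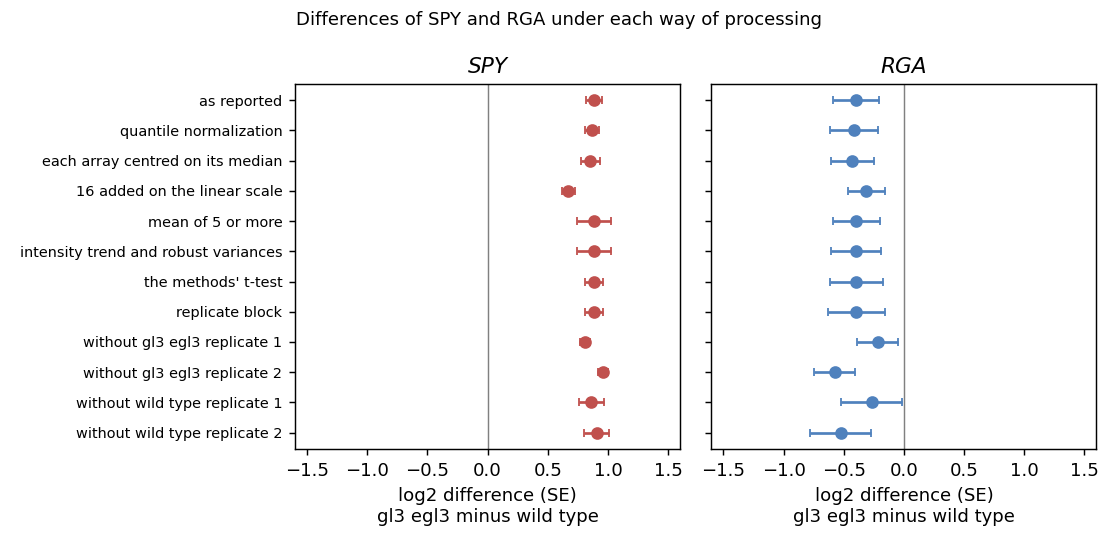
Log2 difference of gl3 egl3 minus wild type for SPY (left) and RGA (right) as reported and under 11 other ways of processing the 4 arrays; points give the difference and bars its SE. SPY lies between 0.67 and 0.96 and RGA between -0.57 and -0.22. The filter on dim probe sets, the intensity trend, the replicate block and the methods' test alter only the SE. Their points stay at the reported difference and say nothing about its stability.

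Other genes of the gibberellin pathway were read from lists. Of 23 listed genes of gibberellin synthesis and breakdown, 0 had a named probe set. Of 27 listed genes of gibberellin perception and response, 8 were measured. At an unadjusted limma p under 0.01 lay 0 of the 8, a level reached by 3.25% of all probe sets. So few genes cannot set the pathway apart from that share. The median log2 difference of the 8 genes was -0.11, beside 0.01 over all probe sets. These medians are not of like probe sets. Of the 8 genes, 6 had a mean of 5 or more. Of all 22746 probe sets, 8363 lay under 3 in both groups, where differences are compressed.

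Among the receptors, GID1A had 8.36 and 8.10 in gl3 egl3, against 8.03 and 8.61 in wild type, and GID1C had 6.72 and 6.54, against 6.58 and 6.59 in wild type. GID1B had 5.56 and 5.14 in gl3 egl3, against 6.11 and 5.30 in wild type. In each receptor gene the groups overlapped. The differences were -0.09 (SE 0.28) for GID1A, 0.05 (SE 0.081) for GID1C and -0.35 (SE 0.40) for GID1B, all smaller than their SE. In each, the sign turned when a single array was left out.

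SLY1, the F-box gene that acts on DELLA proteins, had 8.74 and 8.53 in gl3 egl3, against 8.59 and 8.94 in wild type. The difference was -0.13 (SE 0.18). SEC encodes the O-GlcNAc transferase related to SPY, which modifies RGA as well. It had 7.79 and 8.18 in gl3 egl3, against 7.88 and 8.26 in wild type. The difference was -0.09 (SE 0.24). The groups overlapped in both genes. Whether SPY differed more than SEC was not tested. SNE, a relative of SLY1, had values under 3 in both groups and a difference of 0.04, and TCP15, a growth regulator that acts with SPY in cytokinin responses, lay near it, at 3.20 in gl3 egl3 plants and 3.34 in wild type plants.

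GI, a gene of the circadian clock and of flowering whose protein binds SPY, had 6.32 and 5.73 in gl3 egl3 plants, against 6.99 and 7.23 in wild type plants. Both mutant arrays lay below both wild type arrays. The log2 difference was -1.08 with an SE of 0.28, a 95% confidence interval of -2.04 to -0.12 and a limma adjusted p of 0.484. It was -0.79 without gl3 egl3 replicate 2 and -1.37 without the other mutant array.

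Cytokinin also acts on trichome initiation, through ZFP5 and its relatives, and SPY promotes the response to it. Of 31 listed cytokinin genes, 2 were measured, both response regulators of the type that dampens cytokinin signalling. Neither lay at an unadjusted limma p under 0.01, a level reached by 3.25% of all probe sets. ARR16 had 6.62 and 6.42 in gl3 egl3 plants, against 4.81 and 3.998 in wild type plants. The gap between the groups was wider than the 0.81 between the wild type arrays. ARR16 averaged 6.52 ± 0.14 in gl3 egl3 plants and 4.40 ± 0.57 in wild type plants (SD, n = 2 each). This is a log2 difference of 2.12, or a 4.34-fold higher value in gl3 egl3. The SE was 0.36, the 95% confidence interval 0.86 to 3.37 and the limma adjusted p 0.360. ARR16 differed by 1.52 when 16 was added before taking log2, 1.71 without wild type replicate 2 and 2.52 without the other wild type array. ARR15 lay at the low end, at 2.24 in gl3 egl3 plants and 2.22 in wild type plants. A pair of genes does not describe the cytokinin response.

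The measured zinc finger relatives of GIS also gave little signal. Of 16 other listed proteins with a single C2H2 finger, 5 were measured, all with values under 3 throughout. GIS3, which acts upstream of GIS in trichome initiation, had 2.22 in both mutant arrays, against 2.25 and 2.22 in the wild type arrays. RBE, NUB, JAG and TAC1, known from petals, lateral organs and telomerase control, lay between 2.17 and 2.24. These 5 genes fall outside the rule for named genes, which asks for a mean of 5 or more, and were named after their values were seen.

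Downstream of the regulators stands the initiation complex. Of 17 listed genes of the complex, its regulators and its targets, 12 were measured. Of these, 8 had values under 3 in both groups, among them GL1, GL2, TTG2 and MYB23. The study lists GL2, TTG2, CPC and MYBL2 as direct targets of GL3 and GL1. At an unadjusted limma p under 0.01, 0 were higher and 1, MYBL2, was lower, beside 2.03% and 1.22% of all probe sets in these directions. MYBL2, a single-repeat MYB inhibitor of the complex, had 8.77 and 9.12 in gl3 egl3, against 10.32 and 10.40 in wild type, with a limma adjusted p of 0.249. Its unadjusted p was not under 0.01 by the methods' t-test or when either wild type array was left out. CPC, another inhibitor of this kind, had the largest difference of the list and was named after its value was seen. It had 2.92 and 2.72 in gl3 egl3, where it lay at the low end, against 3.92 and 5.23 in wild type. Its difference of -1.76 (SE 0.58) had a limma adjusted p of 0.591. It was -1.10 when wild type replicate 2 was left out, -2.41 with the other wild type array left out, and -0.82 with 16 added on the linear scale. TTG1, the WD-repeat protein of the complex, had 8.29 and 7.81 in gl3 egl3, against 8.10 and 8.28 in wild type. UPL3 encodes a ubiquitin ligase that acts on GL3 and EGL3. It had 6.40 and 6.60 in gl3 egl3, against 6.46 and 6.59 in wild type, by the brighter of its 2 probe sets. The differences of TTG1 (-0.14, SE 0.22) and UPL3 (-0.02, SE 0.11) were smaller than their SE.

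**Figure D4:**
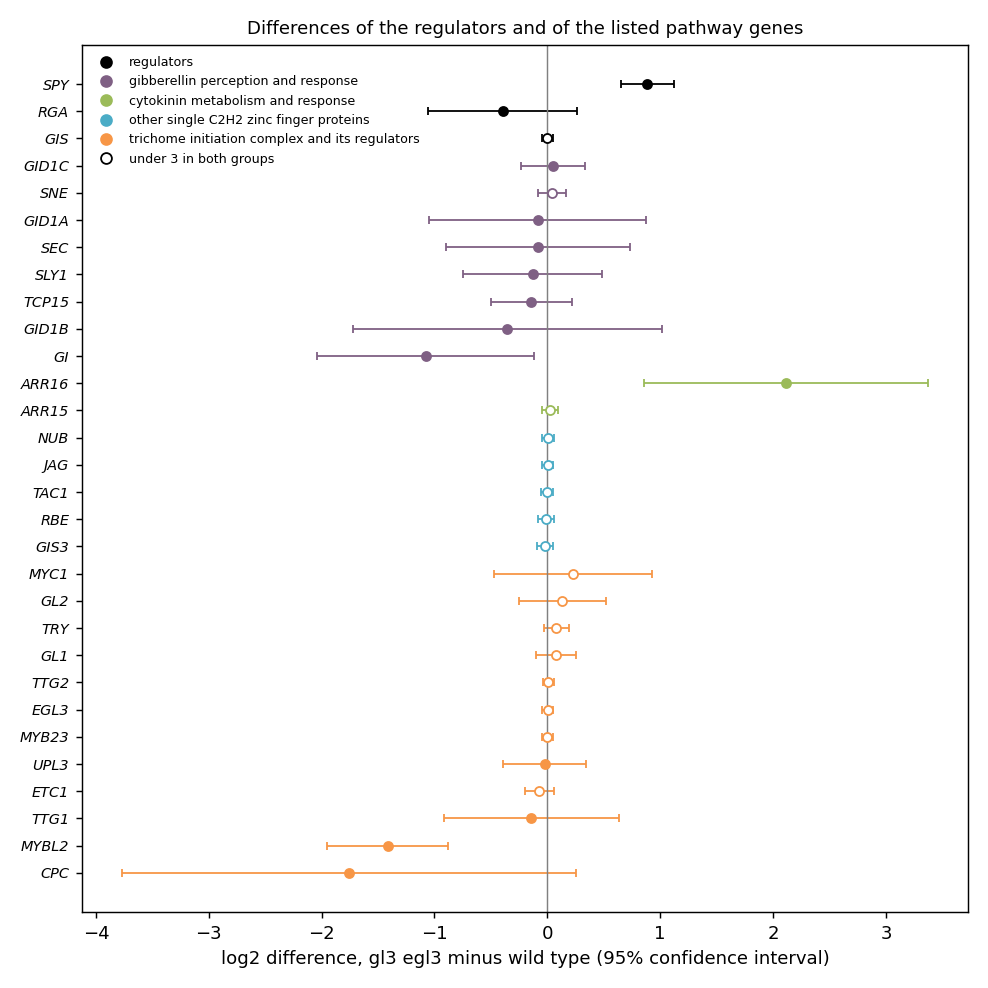
Log2 difference of gl3 egl3 minus wild type with its 95% confidence interval (horizontal axis) for the 3 regulators and the measured genes of 4 lists; open points lie under 3 in both groups. The intervals of SPY (0.65 to 1.12), ARR16 (0.86 to 3.37), GI (-2.04 to -0.12) and MYBL2 (-1.95 to -0.88) do not hold 0. Such an interval is the same call as an unadjusted limma p under 0.05, which 9.31% of all probe sets reached. No gene passed the adjusted threshold.

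The genes whose values over the 4 arrays were most like those of SPY were AT1G24290, NUP155, a gene of the nuclear pore, and AT1G02700. The measure was the Euclidean distance between values centred on each gene's own mean. The distances were 0.058, 0.061 and 0.070 on the log2 scale, with differences of 0.90, 0.87 and 0.93. AT1G24290 had 4.63 and 4.54 in gl3 egl3, against 3.70 and 3.68 in wild type. In NUP155 and AT1G02700 the wild type arrays lay at the low end, at 2.72 and 2.67 on average. For RGA the nearest genes were HVA22C, a homologue of a stress-induced barley gene, AT5G20400 and AT5G11780, at distances of 0.059, 0.068 and 0.082. These genes were picked for their likeness over 4 arrays, so their nearness is a description and no test.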

How the data were processed

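The authors hybridised RNA of 4 green tissue samples to ATH1 arrays after amplification and biotin labelling, and deposited log2 expression values normalized by GCRMA in R with affylmGUI. GCRMA corrects background by probe sequence, normalizes arrays by quantiles and combines probes by median polish. Its version and the arrays normalized together are not stated by any source used here. No scanner files or detection calls were used.

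The 64 array controls among the 22810 probe sets were not tested. The platform annotation gave 13513 probe sets 1 gene symbol, 503 several and 8730 none, and 13436 were matched to RefSeq (TAIR10.1), used for names and gene order only. A further 53 were named from the study's trichome gene table, RGA among them; of 14 named by both, 14 had the same locus. A gene with several probe sets is read by the brightest. No sequences of the members were used.

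Differences are gl3 egl3 minus wild type, from limma 3.58.1 in R 4.3.3 (lmFit, eBayes) on all 4 arrays, two-sided, with Benjamini-Hochberg adjustment over 22746 probe sets. There are 2 residual degrees of freedom and 0.623 from the prior, and the number of arrays limits the precision. The study's methods speak of biologically independent material for its arrays. The scripts were tested on simulated data. Figures were drawn with matplotlib 3.10.9.

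The members and gene lists were chosen with earlier results of these data known. Named genes are the members; from each list up to 6 genes at an unadjusted p under 0.01, filled up to 4 by the largest differences at a mean of 5 or more; and the 3 nearest genes to each member of that brightness. Others were named after their values were seen. Alternatives were other normalizations, 16 added on the linear scale, a filter on dim probe sets, a replicate block, the methods' t-test, robust variances with an intensity trend, and each array left out.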

Additional observations from a re-analysis of the deposited data

How the results depend on the processing

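No probe set of a regulator or of all passed the adjusted threshold under any alternative, which says nothing about stability. GIS left the test with the filter at a mean of 5. At an unadjusted p under 0.01, the count of regulators was 0 with the replicate number as a block, where the limma unadjusted p of SPY was 0.0141, and ranged from 0 to 1 with an array left out. The count over all probe sets was 476 with an intensity trend and 323 with the methods' t-test, and 547 to 1346 with an array left out. Over all probe sets it was 517 of 11298 with the filter and 837 with median centring, beside 740 of 22746 as reported. The gene lists are too short for their counts to be set apart from these. For gibberellin perception the count was 1 with the filter. For cytokinin genes it was 1 with median centring, 1 with an intensity trend and 1 with the filter. For the initiation complex it was 2 with quantile normalization, 0 with the methods' t-test and 0 with the block, and 0 to 2 with an array left out. Same-numbered arrays deviated together with a correlation of 0.18 over 11298 probe sets, and the labels do not say that a number marks a shared batch. The causes were not tested.

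The filter, the intensity trend, the methods' t-test and the block alter the error of a difference and not its value. Their values are among the 415 alternative values of the other genes tried and could not turn sign. Of the 415, 34 had the opposite sign to the reported value. In 13 of these the reported or the alternative value rounded to 0.00. In the other 21 both had a sign at 2 decimals. With median centring ARR15 was -0.0085, NUB -0.027, TTG2 -0.024 and LHCB4.1 -0.013, and LHCB4.1 was -0.051 with quantile normalization. With an array left out, the differences ranged for GID1A from -0.38 to 0.20, for GID1B from -0.76 to 0.049, for GID1C from -0.041 to 0.14, for SLY1 from -0.30 to 0.043, for SEC from -0.28 to 0.11, for RBE from -0.030 to 0.0065, for TTG1 from -0.38 to 0.096, for UPL3 from -0.12 to 0.078, for LHCB4.1 from -0.053 to 0.094, for PYK10 from -0.65 to 0.34, for MUTE from -0.32 to 0.0070, and for FAMA from -0.54 to 0.032.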

Other observations

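The genes beside the regulators on the chromosome were read as well, in the RefSeq gene order, with the 3 nearest measured genes on each side. Beside SPY, the 6 neighbours differed by -0.49 to 0.30, and 0 lay at an unadjusted limma p under 0.01, against 3.25% of all probe sets. Beside RGA, the 6 neighbours differed by -0.09 to 0.08, again with 0 at that level. Beside GIS, 1 of 6 lay at that level: the transcription factor gene BZIP61, at 8.97 in gl3 egl3 plants and 7.42 in wild type plants, with a log2 difference of 1.55, while the other neighbours of GIS differed by -0.11 to 0.09. BZIP61 was named after its value was seen.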
